A study of Mus musculus with 12 samples.

Results

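The natriuretic peptide genes *Nppa* and *Nppb* and the 3 receptor genes *Npr1*, *Npr2* and *Npr3* were examined in mouse embryonic hearts and in heart organoids. These 5 of the 26190 genes in the expression table were taken by gene name, and all 5 passed the filter on low counts in each comparison. *Nppa* encodes atrial natriuretic peptide (ANP) and *Nppb* encodes brain natriuretic peptide (BNP), hormones that cardiomyocytes secrete and that act on vessels and kidney. In the embryo *Nppa* is a classical marker of the expanding chamber myocardium of atria and ventricles, and both genes lie next to each other in the genome. *Npr1* encodes the receptor guanylyl cyclase for ANP and BNP, *Npr2* the related receptor for C-type natriuretic peptide, and both receptors raise cGMP in the cell. *Npr3* encodes the clearance receptor, which binds all of these peptides, takes them up for breakdown and has no cyclase domain.

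RNA-seq was carried out on 4 groups with 3 libraries each, all labelled with the C57BL/6 strain. The embryonic groups were atria and ventricles dissected from the hearts of E11.5 embryos (E11.5H). The organoid groups were the atrium-like and ventricle-like parts cut from heart organoids (HO) at day 13. HOs grew from aggregates of wild-type mouse embryonic stem cells on a laminin-entactin gel with FGF4, followed by BMP4, the Wnt activator BIO and LIF, and the methods name stem cell lines from C57BL/6 and from a hybrid of C57BL/6 and JF1. Which line gave which library, and how many hearts or organoids went into each, are not given in the sources used here. No gene was altered in any group. The comparisons ask how peptide and receptor transcripts differ between chambers, and between each HO part and the chamber it is named after.

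The libraries held 23971258 to 30540993 fragments assigned to genes. HO libraries contained less cardiomyocyte RNA and RNA of other kinds. The summed FPKM (fragments scaled to transcript length and library size) of 38 cardiomyocyte genes was 29168 to 33998 in atria, 25499 to 26911 in ventricles, 718 to 2187 in atrium-like parts and 3265 to 8001 in ventricle-like parts. At most 1 of the 38 genes was at 0 in any library, so cardiomyocyte markers were present in all 4 groups. The sum of 12 hepatocyte and visceral endoderm genes was 14.2 to 17.9 FPKM in E11.5H, 690 to 14103 FPKM in atrium-like parts and 112 to 6100 FPKM in ventricle-like parts. The sum of 12 gut epithelium genes was 73.7 to 101 FPKM in E11.5H, 1495 to 5904 FPKM in atrium-like parts and 637 to 3104 FPKM in ventricle-like parts. In ventricles the erythroid sum was 72147 FPKM in replicate 3, against 11495 and 18958 FPKM in the other two. The part of these other cell types in the results was not tested. In such bulk samples fewer cells of a type and less RNA per cell cannot be told apart.

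In the authors' table *Nppb* lies on chromosome 4 at chr4:147985788-147987205 and *Nppa* at chr4:148000722-148002074 (GRCm38, both on the plus strand), with 13516 bases between them. Each has 3 exons in GENCODE M21. *Nppa* overlaps the antisense gene *Gm13054*, and since the use of strand in counting is not given, reads of both cannot be told apart. The proximal promoters are shown because members of the GATA, NKX2-5 and T-box families act there and were measured in the same libraries. The windows run from 250 bases before to 50 bases after the RefSeq start (GRCm38.p6), at chr4:148000472-148000771 for *Nppa* and at chr4:147985650-147985949 for *Nppb*, both on the plus strand. For *Nppb*, the start used by RefSeq lies downstream of the gene start in the authors' table. Capitals mark matches on either strand to the letters known for NKX2-5 (AAGTG), for the GATA family (NGATAA), for T-box factors (GGTGTGA) and for TEAD factors (CATTCC).
Nppa: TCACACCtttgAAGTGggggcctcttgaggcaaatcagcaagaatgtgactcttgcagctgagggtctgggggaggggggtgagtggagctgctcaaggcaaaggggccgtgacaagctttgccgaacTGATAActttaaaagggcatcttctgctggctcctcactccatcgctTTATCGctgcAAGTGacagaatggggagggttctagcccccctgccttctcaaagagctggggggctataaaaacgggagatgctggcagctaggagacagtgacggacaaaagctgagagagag
Nppb: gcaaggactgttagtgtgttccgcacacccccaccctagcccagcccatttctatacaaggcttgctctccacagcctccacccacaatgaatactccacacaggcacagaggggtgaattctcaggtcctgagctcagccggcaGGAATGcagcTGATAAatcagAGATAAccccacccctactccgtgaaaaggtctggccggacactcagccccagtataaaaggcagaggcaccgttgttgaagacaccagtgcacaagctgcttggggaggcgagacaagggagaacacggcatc

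Both windows held 2 GATA matches, starting at -122 and -75 in *Nppa* and at -95 and -84 in *Nppb*. AAGTG was found at -239 and -65 in *Nppa* and not in the *Nppb* window. The T-box letters stood at -250 in *Nppa* and the TEAD letters at -105 in *Nppb*. Short motifs of this kind are common. AAGTG was present in 46.4% of 32851 RefSeq promoter windows of the same length, NGATAA in 25.3%, CATTCC in 14.7% and GGTGTGA in 3.98%. The AP-1 letters TGANTCA were in neither window and in 7.81% of all windows. A loose form of the SRF box (CArG-like), which 73.3% of all windows hold, matched at -230 in *Nppa*. A match is a description of the letters only.

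*Nppa* was among the abundant transcripts of both embryonic chambers and scarce in both HO parts. Its level was 2810, 1925 and 2392 FPKM in the 3 atrial libraries and 2819, 2597 and 3058 FPKM in the 3 ventricular libraries. In atrium-like parts it was 0.528, 1.06 and 2.43 FPKM, from 13, 31 and 68 fragments. In ventricle-like parts it was 4.01, 3.42 and 8.75 FPKM, from 113, 96 and 244 fragments. Every HO library lay below every E11.5H library, and within E11.5H the chambers overlapped. A separation in this direction, whatever its size, was found for 30.3% of all genes tested between atrium-like parts and atria and for 21.1% between ventricle-like parts and ventricles. Mean *Nppa* in atria was 1773-fold that of atrium-like parts, and mean *Nppa* in ventricles was 524-fold that of ventricle-like parts. The lowest atrial library was still 792-fold above the highest atrium-like library, and the corresponding distance for the ventricles was 297-fold.

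The fall of *Nppa* was called in both HO parts. The log2 fold change was -10.63 ± 0.69 (SE, n = 3 per group) against atria and -9.13 ± 0.50 against ventricles, with adjusted p-values of 0.0012 and 0.0011 (edgeR quasi-likelihood test, Benjamini-Hochberg adjustment, here and below). A gene was called when the adjusted p was below 0.05 and the log2 fold change beyond 1 in either direction. Of all genes tested 24.8% were called in atrium-like parts against atria and 18.9% in ventricle-like parts against ventricles, and 8.81% and 7.35% were called lower, 16% and 11.6% higher. Counted from the most negative log2 fold change, *Nppa* stood at place 12 of 15418 genes in atrium-like parts and at place 25 of 15094 in ventricle-like parts.

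**Figure D1:**
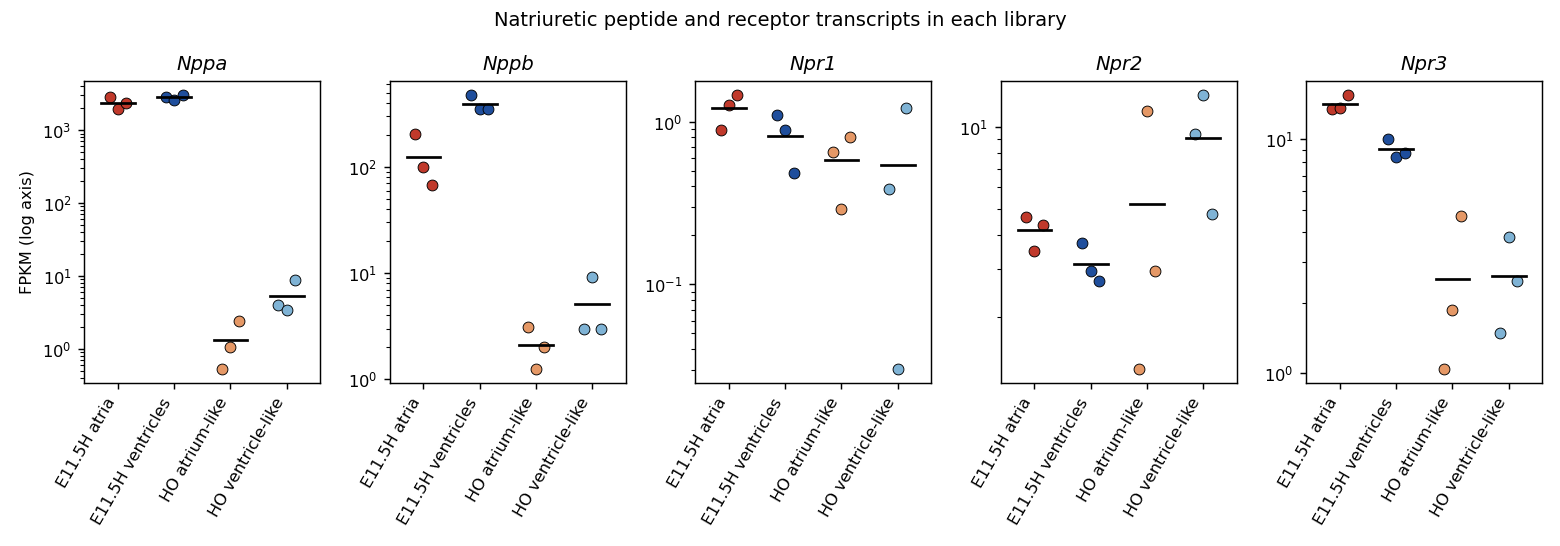
FPKM of each natriuretic peptide and receptor gene on a log axis whose range differs between panels, with 1 point per library for the 4 groups and a bar at each group mean. *Nppa* and *Nppb* in all 6 HO libraries lie below all 6 E11.5H libraries, *Npr3* shows the same separation at a smaller distance, and E11.5H and HO libraries overlap for *Npr1*.

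*Nppb* was also much lower in HOs, by a smaller fold. It was 206, 101 and 67.6 FPKM in atria and 478, 351 and 349 FPKM in ventricles. The atrium-like parts had 3.09, 1.25 and 2.01 FPKM, from 69, 33 and 51 fragments, and the ventricle-like parts had 3.01, 9.29 and 2.96 FPKM, from 77, 237 and 75 fragments. No HO library reached an E11.5H library, while the atrium-like and ventricle-like parts overlapped. Such a separation, whatever its size, held for 30.3% of all genes tested in the atrial pair and 21.1% in the ventricular pair. By the means, E11.5H exceeded HOs 59.0-fold for the atrial pair and 77.2-fold for the ventricular pair. The log2 fold changes were -5.68 ± 0.66 with an adjusted p of 0.0035 (edgeR) and -6.37 ± 0.55 with an adjusted p of 0.0018 (edgeR). *Nppb* stood at place 128 and at place 52 among all genes tested.

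The balance of both peptide transcripts differed between E11.5H and HOs. In atria the level of *Nppa* was 13.7, 19.1 and 35.4 times that of *Nppb* in FPKM, and in ventricles 5.90, 7.40 and 8.77 times. In atrium-like parts the ratio was 0.171, 0.853 and 1.21, and in ventricle-like parts 1.33, 0.368 and 2.95. The highest ratio in HOs was below the lowest ratio in E11.5H, and in 3 of 6 HO libraries *Nppb* was the more abundant of the pair.

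The size of the loss was then set against other cardiomyocyte genes. The mean sum of the 38 cardiomyocyte genes differed 18.7-fold between atria and atrium-like parts and 4.64-fold between ventricles and ventricle-like parts, with the lower value in HOs. Of these 38 genes, 31 were called lower and 0 higher in atrium-like parts, with a median log2 fold change of -2.93, against 0.06 over all genes tested. In ventricle-like parts 27 were called lower and 0 higher, with a median of -1.997 against 0.09. Ordered by log2 fold change among these genes, *Nppa* was the lowest of 40 in both HO parts. *Nppb* was in place 2 in atrium-like parts and in place 3 in ventricle-like parts.

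The genes that followed in atrium-like parts encode myosin light chains and a myosin chaperone. These were the light chains *Myl4* with a log2 fold change of -5.20 and *Myl7* with -5.16, and the chaperone *Unc45b* with -4.92. Within E11.5H, *Myl7* was called higher in atria than in ventricles (1.28), and *Myl4* was not called (0.39). *Myl7* remained at 115 to 415 FPKM in atrium-like parts, from 9495 to 11545 FPKM in atria. In ventricle-like parts the β-myosin heavy chain *Myh7* fell by 6.47 on the log2 scale, from 1185 to 1455 FPKM in ventricles to 3.82 to 37.9 FPKM. The thick filament protein *Mybpc3* followed with -3.31 and cardiac actin *Actc1* with -3.11. At the other end stood *Mb* (myoglobin, -0.61), *Casq2* (the calcium store protein calsequestrin, 0.13) and *Myom2* (M-band protein, 1.01) in atrium-like parts, and *Cox6a2* (0.32), *Casq2* (1.18) and *Myom2* (3.43) in ventricle-like parts, none of them called.

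**Figure D2:**
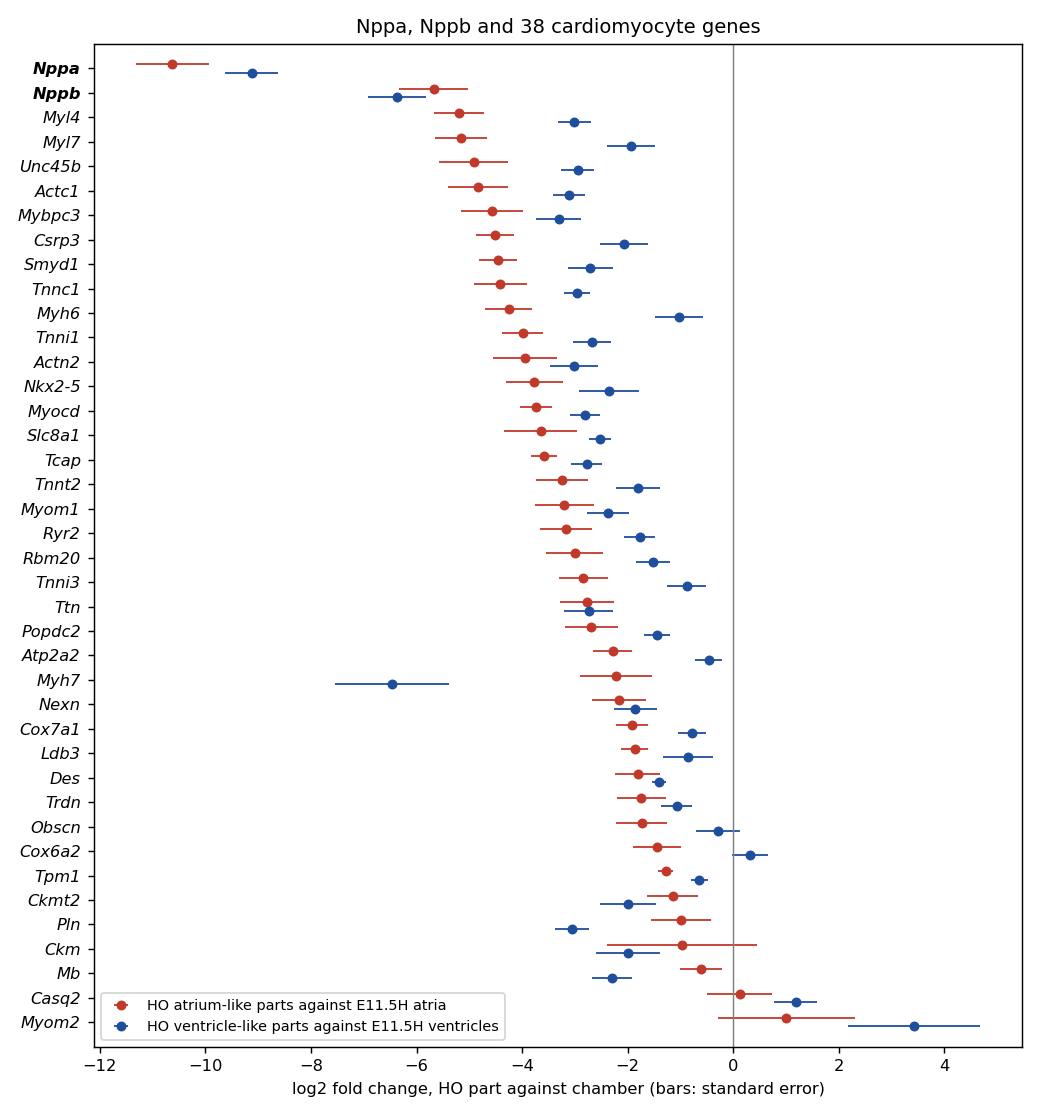
Log2 fold change with its standard error for *Nppa*, *Nppb* and 38 cardiomyocyte genes in atrium-like parts against atria (red) and ventricle-like parts against ventricles (blue), 3 libraries per group, ordered by the red values. *Nppa* lies farthest to the left in both comparisons, at -10.63 and -9.13, and *Myh7* is the cardiomyocyte gene that lies beyond *Nppb* in ventricle-like parts.

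Within each library, the peptide level was also measured against the mean of 16 cardiomyocyte genes, as the difference of log2(CPM + 1) values, where CPM is the count scaled to library size. *Nppa* exceeded this mean by 2.08 ± 0.21 (SD, n = 3) in atria and 2.28 ± 0.15 in ventricles. It lay at -4.39 ± 0.50 in atrium-like parts and at -4.50 ± 0.26 in ventricle-like parts. The differences were -6.47 in atrium-like parts minus atria and -6.78 in ventricle-like parts minus ventricles, each with a p of 0.1 in a two-sided exact permutation test, the smallest value that 3 against 3 libraries allow. E11.5H and HO libraries did not overlap, so the fall of *Nppa* went beyond that of the mean of the 16 genes in both parts.

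For *Nppb* the same measure separated one HO part only. It was -0.72 ± 0.30 in ventricles and -4.75 ± 1.45 in ventricle-like parts, a difference of -4.03 (exact permutation p = 0.1, the groups did not overlap). In atria it was -1.65, -2.53 and -3.11, and in atrium-like parts -2.47, -4.83 and -4.68, with replicate 1 inside the range of the atria. The difference of -1.56 had an exact permutation p of 0.3. When libraries were scaled to the 16 cardiomyocyte genes in edgeR, *Nppb* in atrium-like parts had a log2 fold change of -1.66 with an adjusted p of 0.073, so the call was lost, whereas in ventricle-like parts it was -3.79 with an adjusted p of 0.0033. *Nppa* kept log2 fold changes of -7.30 and -7.05 under this scaling. This scaling shifted the whole table, with a median over all genes of 3.74 in atrium-like parts and 2.41 in ventricle-like parts.

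**Figure D3:**
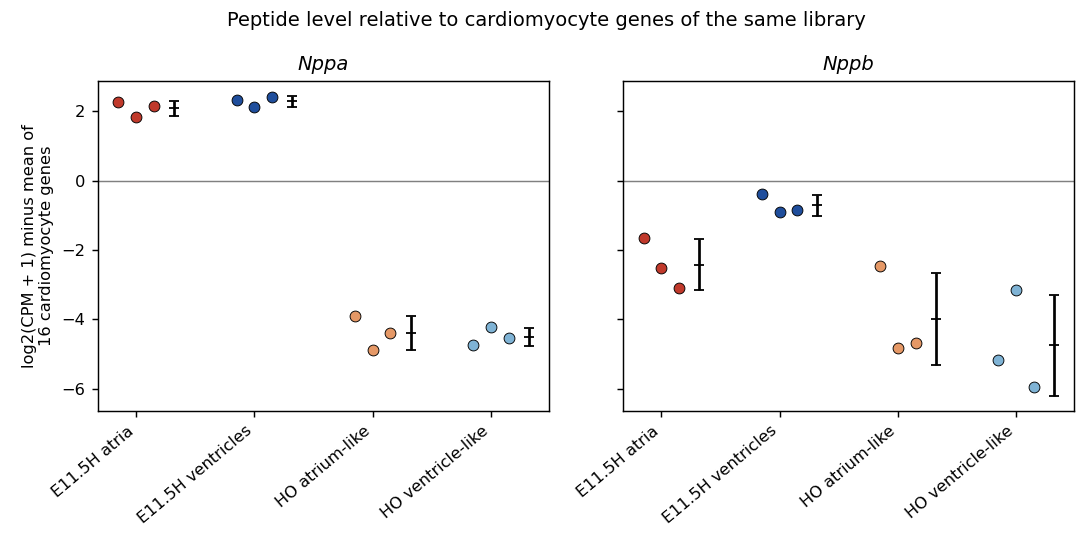
Level of *Nppa* and *Nppb* minus the mean of 16 cardiomyocyte genes in the same library, in log2(CPM + 1) units, with 1 point per library and the mean ± SD of 3 libraries at the right of each group. *Nppa* is above 0 in all E11.5H libraries and between -4.88 and -3.89 in HOs, while *Nppb* in atrium-like replicate 1, at -2.47, lies within the range of the atria.

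Across the 6 HO libraries, the order by *Nppa* level was the same as the order by the cardiomyocyte mean. From lowest to highest mean the *Nppa* levels were 0.71, 1.02, 1.85, 2.05, 2.30 and 3.26 in log2(CPM + 1). The relative level of *Nppa* spanned -4.88 to -3.89, where the pseudocount of 1 CPM weighs on the lowest levels. That of *Nppb* spanned -5.94 to -2.47, and its highest HO level was in ventricle-like replicate 2, which had the lowest cardiomyocyte sum of the ventricle-like parts. In that library the sum of 10 neural genes was 371 FPKM, against 104 and 24.7 FPKM in the other two. Its sums of skeletal muscle, macrophage, cartilage, smooth muscle and endothelial genes were also the highest of the ventricle-like parts. The part of any of these in the *Nppb* level was not tested.

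Between the chambers of E11.5H, *Nppb* was lower in atria and *Nppa* differed little. *Nppb* had a log2 fold change of -1.71 ± 0.33 in atria against ventricles, with an adjusted p of 0.0066 (edgeR), and its chambers did not overlap, with 11.8% of all genes lower in every atrial library. When all 12 libraries shared 1 fit the value was -1.72 and the adjusted p 0.36, so the call was lost there. It was the 1 member called, and 4.9% of all genes tested were called in this comparison, 1.97% lower and 2.92% higher in atria. *Nppa* had -0.32 ± 0.13 with an adjusted p of 0.15 (edgeR) and overlapping chambers. *Npr3* was higher in atria by 0.58 ± 0.09 on the log2 scale, with an adjusted p of 0.0019 (edgeR), which is within the fold limit of the call.

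Between the 2 HO parts no member was called, as 0% of the 15703 genes tested passed in edgeR. At an unadjusted p under 0.05 there were 889 genes, and DESeq2 called 59. *Nppa* was lower in every atrium-like library than in every ventricle-like library, as were 9.25% of all genes tested. Its log2 fold change was -1.85 with a 95% confidence interval of -3.72 to 0.01 and an adjusted p of 0.75 (edgeR). For *Nppb* the value was -1.01 with an interval of -2.84 to 0.82. Relative to cardiomyocyte genes the parts were close to each other for *Nppa*, at -4.39 and -4.50 with a pseudocount of 1 CPM. The pseudocount weighs on these values, as *Nppa* was 0.64 to 2.61 CPM in atrium-like parts. With 0.1 CPM the difference of atrium-like parts from atria moved from -6.47 to -7.22. Whether the difference of the chambers was another one in HOs than in E11.5H was tested by the interaction term, which was -1.53 ± 0.66 for *Nppa* (adjusted p = 0.42, edgeR) and 0.69 ± 0.77 for *Nppb* (adjusted p = 0.76, edgeR). No member was called in it, and 0.152% of all genes were.

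Among the receptors, the clearance receptor *Npr3* was the most abundant per length in E11.5H and the one that fell in HOs. *Npr3* lies on chromosome 15 at chr15:11839896-11907371 on the minus strand, with 9 exons, and overlaps *Gm5144* on the other strand. It was 13.5, 13.7 and 15.5 FPKM in atria and 9.996, 8.44 and 8.74 FPKM in ventricles. It was 1.04, 1.86 and 4.70 FPKM in atrium-like parts and 1.49, 3.84 and 2.48 FPKM in ventricle-like parts. All HO libraries were below all E11.5H libraries, and both HO parts overlapped. Of all genes tested, 30.3% separated in this direction between atrium-like parts and atria and 21.1% between ventricle-like parts and ventricles. Its log2 fold change was -2.33 ± 0.53 with an adjusted p of 0.020 (edgeR) in atrium-like parts, and turned to 1.003 with an adjusted p of 0.098 under scaling to cardiomyocyte genes, which is -2.74 relative to the shift of all genes. In ventricle-like parts it was -1.90 ± 0.33 with an adjusted p of 0.010 (edgeR), and 0.55 under that scaling, or -1.87 relative to the shift. Taking off the shift nearly undoes the scaling. With that scaling the median of all genes was 3.74 in atrium-like and 2.41 in ventricle-like parts, so a value above 0 says little about *Npr3* itself. Leaving out any 1 of the 3 atrial libraries gave adjusted p-values of 0.065 to 0.069 in atrium-like parts, and leaving out ventricle replicate 1 gave 0.051 in ventricle-like parts.

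Endocardium is a known site of *Npr3* in the embryonic heart, and the summed level of endothelial and endocardial markers was also lower in HOs. Of 10 such genes, 1 was called lower in atrium-like parts, where 8.81% of all genes were, and 3 in ventricle-like parts, where 7.35% were, with median log2 fold changes of -2.84 and -3.22. The summed FPKM of the 10 genes was 256 to 293 in atria, 292 to 305 in ventricles, 13.5 to 96.0 in atrium-like parts and 26.3 to 63.5 in ventricle-like parts, with at most 1 gene at 0 in a library. The mean sum was 5.80-fold and 6.78-fold lower in HO parts, while mean *Npr3* was 5.61-fold and 3.48-fold lower. The part of these cells in the level of *Npr3* was not tested.

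*Npr2* was not lowered in HOs and varied between their libraries. It lies on chromosome 4 at chr4:43631935-43651437 on the plus strand, with 22 exons, and overlaps *Spag8* and *Gm12473* on the minus strand. It was 4.66, 3.50 and 4.37 FPKM in atria, 3.76, 2.95 and 2.71 FPKM in ventricles, 1.29, 11.4 and 2.94 FPKM in atrium-like parts and 9.44, 13.1 and 4.79 FPKM in ventricle-like parts. Ventricle-like parts were above ventricles in every library, as in 29.6% of all genes, with a log2 fold change of 1.44 ± 0.37 and an adjusted p of 0.032 (edgeR), where 11.6% of all genes were called higher. This call was lost when any 1 ventricle library or ventricle-like replicate 1 or 2 was left out (adjusted p 0.052 to 0.12), and it held without ventricle-like replicate 3. In atrium-like parts the value was 0.39 ± 0.68 and turned to -0.77 without replicate 2. The 2 ventricle-like libraries and the atrium-like library with the highest *Npr2* also had the highest sums of 10 fibroblast and mesenchyme genes, at 5231, 2613 and 3590 FPKM, against 689 to 1332 FPKM in the other HO libraries and 880 to 1179 FPKM in E11.5H. Fibroblast genes did not stand alone in this. Those libraries also had the highest HO sums of macrophage genes (504 to 963 FPKM) and neural genes (104 to 371 FPKM). The same held for skeletal muscle, smooth muscle, cartilage and endothelial genes. The part of any of these cells in the level of *Npr2* was not tested.

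*Npr1*, the receptor of ANP and BNP themselves, was low in all groups. It lies on chromosome 3 at chr3:90450592-90465866 on the minus strand, with 22 exons, and overlaps the antisense gene *Gm16048*. It was 0.883, 1.27 and 1.46 FPKM in atria, 1.10, 0.884 and 0.483 FPKM in ventricles, 0.653, 0.290 and 0.809 FPKM in atrium-like parts and 0.383, 0.0301 and 1.21 FPKM in ventricle-like parts. The value of 0.0301 FPKM rested on 4 fragments. Atrium-like parts were below atria in every library, as were 30.3% of all genes tested, and ventricle-like parts overlapped ventricles. The log2 fold changes were -0.83 ± 0.55 and -0.68 ± 1.11, with adjusted p-values of 0.29 and 0.67 (edgeR). Under scaling to cardiomyocyte genes they turned to 2.95 (adjusted p = 0.0067, edgeR) and 1.02 (adjusted p = 0.33, edgeR). Relative to the shift of all genes this is -0.79 and -1.40, but taking off the shift nearly undoes the scaling. The median of all genes under this scaling was 3.74 in atrium-like and 2.41 in ventricle-like parts. A value above 0 is therefore usual there and says little about *Npr1* itself.

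The mix of receptor transcripts differed between E11.5H and HOs. *Npr3* was 2.90 to 3.90 times *Npr2* in atria and 2.66 to 3.22 times in ventricles by FPKM. In atrium-like parts the ratio was 0.808, 0.163 and 1.60, and in ventricle-like parts 0.158, 0.292 and 0.518, so that each HO library lay below each E11.5H library. In total, 3 of the 5 members were called lower in each HO part, *Nppa*, *Nppb* and *Npr3*, and *Npr2* was called higher in ventricle-like parts. Over all genes tested 8.81% were called lower in atrium-like and 7.35% in ventricle-like parts, and 11.6% higher in the latter.

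The list for peptide processing and breakdown had 9 genes. In atrium-like parts 9 were tested, 1 was called higher and 1 lower, with a median log2 fold change of -0.12. In ventricle-like parts 8 were tested, 0 were called higher and 3 lower, with a median of -1.12. For this list and those of the cGMP pathway and the factors below, the shares over all genes tested were 16% higher and 8.81% lower in atrium-like parts, and 11.6% higher and 7.35% lower in ventricle-like parts. *Pam*, which encodes an amidating enzyme that is abundant in atrial granules, fell by 2.70 ± 0.16 and by 2.03 ± 0.13 on the log2 scale. Its level was 84.2 to 103 FPKM in atria, 59.8 to 67.9 FPKM in ventricles and 10.7 to 18.5 FPKM in HOs. *Corin*, the protease that cleaves pro-ANP, was 15.3, 18.0 and 19.4 FPKM in atria against 0.299, 4.62 and 4.90 FPKM in atrium-like parts. The groups did not overlap, as for 30.3% of all genes tested in this direction. The log2 fold change of *Corin*, -2.32 ± 0.84, did not pass (adjusted p = 0.079, edgeR). In ventricle-like parts it was -1.15 ± 0.40 (adjusted p = 0.075, edgeR). *Pcsk6*, which activates corin, fell by 2.92 in ventricle-like parts, where it was 0.917 to 1.90 FPKM against 8.62 to 10.9 FPKM in ventricles, and within E11.5H its log2 fold change in atria against ventricles was -3.55. The convertase *Furin* had 0.09 and 0.62, the peptidases *Mme* -0.77 and -1.08 and *Ide* -0.12 and -0.41, none called. *Ece1* fell by 1.68 in ventricle-like parts. *Ostn*, which encodes a ligand of the clearance receptor, had 0 fragments in all E11.5H libraries and 9 to 53 fragments in HO libraries. *Nppc*, which encodes the C-type peptide, was at most 0.455 FPKM in E11.5H and 0.201 to 4.55 FPKM in HOs, with log2 fold changes of 2.50 and 3.94 that did not pass.

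Of 13 genes of the cGMP pathway, 1 was called higher and 2 lower in atrium-like parts, and 2 higher and 0 lower in ventricle-like parts. The median log2 fold changes were -1.18 and -0.29. The kinase gene *Prkg2*, known from intestinal epithelium, rose by 5.89 and 4.84, from at most 0.657 FPKM in E11.5H to 3.37 to 41.6 FPKM in HOs, and was highest in the same libraries as the gut epithelium sum within each HO part, at 5904 and 3104 FPKM. The part of these cells was not tested. The other kinase gene *Prkg1* had -1.68 and -0.83 and was not called. The subunits of soluble guanylyl cyclase, *Gucy1a1* and *Gucy1b1*, fell by 2.78 and 1.36 in atrium-like parts, and *Pde5a*, which encodes a phosphodiesterase of cGMP, rose by 1.62 in ventricle-like parts. Between chambers of E11.5H, 4 of the 13 were called higher in atria, *Gucy1a1* (1.51), *Pde2a* (1.48), *Pde5a* (1.67) and *Pde9a* (2.21), and 0 lower, where 2.92% of all genes were called higher and 1.97% lower.

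Factors known to bind or act at *Nppa* or *Nppb* had smaller log2 fold changes than the peptides. Of 15 such genes, 1 was called higher and 4 lower in atrium-like parts, with a median log2 fold change of -0.90, and 2 higher and 3 lower in ventricle-like parts, with a median of -0.57. The activator *Nkx2-5* was 78.3 to 88.2 FPKM in atria, 82.7 to 93.4 FPKM in ventricles, 2.34 to 10.1 FPKM in atrium-like parts and 8.11 to 36.1 FPKM in ventricle-like parts. It fell by 3.77 ± 0.55 and by 2.35 ± 0.57. *Myocd*, the SRF cofactor myocardin, fell by 3.73 and 2.81, and *Mef2c* by 1.96 and 1.43. *Tbx5*, which activates *Nppa* together with NKX2-5, fell by 3.18 in atrium-like parts, to 1.95 to 5.78 FPKM from 39.9 to 48.9 FPKM, and had -0.32 ± 0.28 in ventricle-like parts. *Gata4* had -0.54 and -0.43 and *Gata6* -0.50 and -0.57, none called, and *Gata4* remained at 35.6 to 119 FPKM in HOs.

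Of the repressors in this list, *Tbx3* rose in both HO parts and *Tbx2* in ventricle-like parts. *Tbx2* and *Tbx3* mark the non-chamber myocardium, where *Nppa* is off, and are also made by other tissues. *Tbx3* rose by 1.01 ± 0.20 in atrium-like parts, just beyond the fold limit of 1, and by 2.39 ± 0.53 in ventricle-like parts. *Tbx2* rose by 2.30 ± 0.21 in ventricle-like parts, and had 0.80 ± 0.30 in atrium-like parts (adjusted p = 0.088, edgeR). *Rest*, a repressor that acts on *Nppa* and *Nppb*, had 0.01 ± 0.20 and -0.07 ± 0.15. *Jarid2*, also in the list, was not called in either part. Within E11.5H, *Tbx5* and *Tbx3* were called higher in atria, by 1.66 and 1.30.

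**Figure D4:**
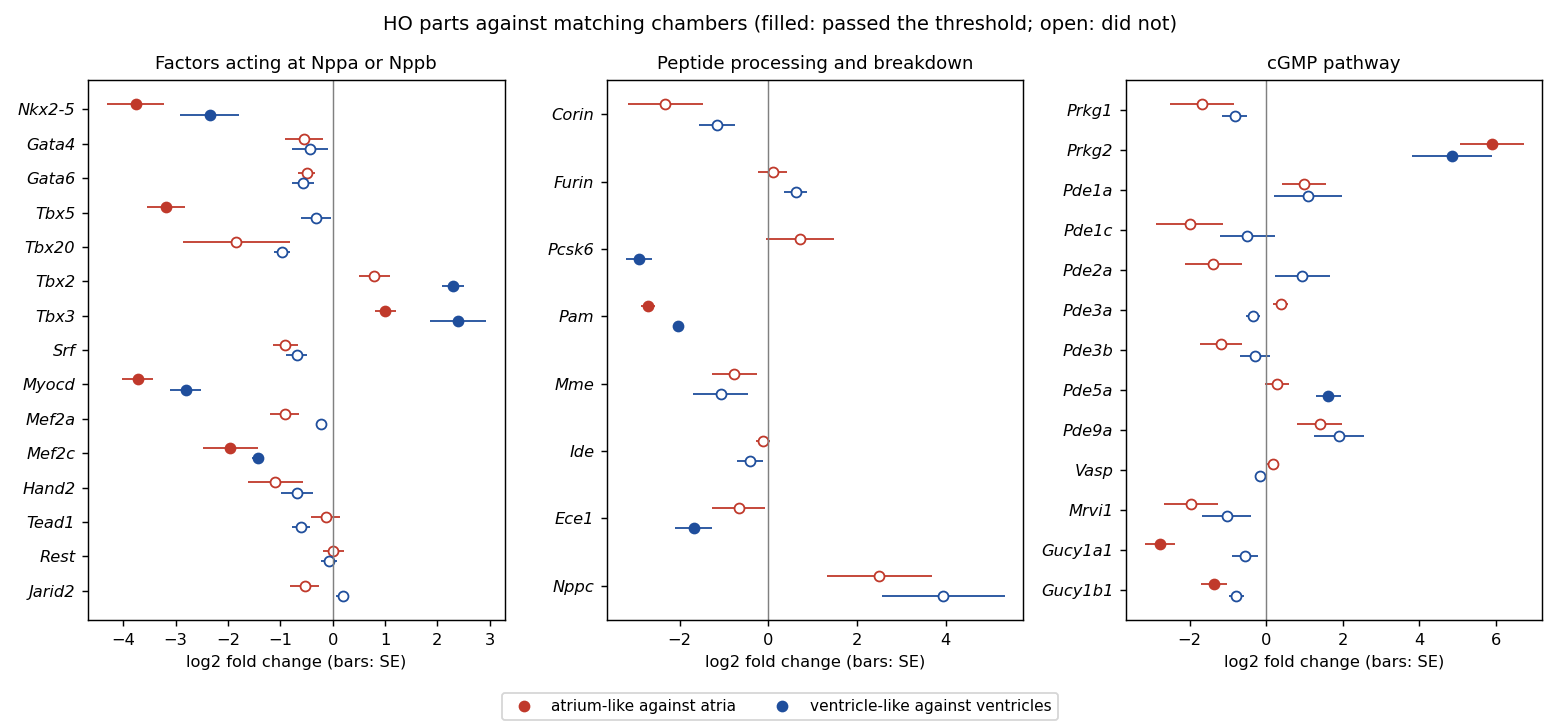
Log2 fold change with its standard error for 15 factors acting at *Nppa* or *Nppb*, for genes of peptide processing and breakdown and for 13 cGMP pathway genes, in atrium-like parts against atria (red) and ventricle-like parts against ventricles (blue), 3 libraries per group. *Ostn*, with 0 fragments in E11.5H, is not drawn, and filled points passed the threshold, such as *Nkx2-5*, *Myocd* and *Mef2c* to the left in both parts and *Prkg2* to the right.

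*Nppa* is known from chamber and trabecular myocardium, and other genes of that program were compared. Of 10 genes, 6 were called lower in atrium-like parts and 7 in ventricle-like parts, with median log2 fold changes of -3.56 and -4.27. Over all genes tested 8.81% and 7.35% were called lower, and the medians were 0.06 and 0.09. *Bmp10*, a growth factor of trabecular myocardium, had 218 to 256 fragments in atria, 533.5 to 646 in ventricles and 0 or 1 in each HO library. Its log2 fold change was -8.77 in atrium-like parts, where *Nppa* had -10.63. In ventricle-like parts it was -10.44, more negative than the -9.13 of *Nppa*. With so few fragments in HOs these folds are imprecise. *Gja5*, the gap junction protein connexin 40, was 60.6 to 66.9 FPKM in atria and 0.00966 to 1.22 FPKM in atrium-like parts, with a log2 fold change of -7.21, and fell by 5.18 in ventricle-like parts. The muscle protein gene *Smpx* fell by 6.04 and 5.46. The 3 genes with the least negative values were *Cited1* (-0.86), *Hopx* (-0.63) and *Irx3* (-0.03) in atrium-like parts, none called, and *Irx3* (-1.92, called), *Hey1* (-1.23) and *Cited4* (-0.64) in ventricle-like parts.

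The genes with the most similar pattern were sought by Pearson's r of log2(CPM + 1) over the 12 libraries among 13155 genes. These values describe 12 points that fall into 2 sets, E11.5H and HOs, so that a gene which differs between the sets ranks high, and they carry no test. For *Nppa* the closest genes were *Cavin2* (r = 0.995), *Pola1*, *Dicer1*, *Klhl31* and *Brcc3*, and for *Nppb* they were *Bmp10* (0.981), *Psmb7*, *Igfbpl1*, *Atp2b4* and a repeated locus of *Ppia*. For *Npr3* they were *Rtl3* (0.978), *Rasgrp3*, *Jazf1*, *Bahcc1* and *Runx1t1*, for *Npr2* *Plppr2* (0.972), *Syn2*, *Socs5*, *Ube2e2* and *Spred1*, and for *Npr1* *Aldh7a1* (0.934), *Cep57*, *Kxd1*, *Kif16b* and *Mbtd1*. Between the members, r was 0.958 for *Nppa* and *Nppb* and 0.911 for *Nppa* and *Npr3*.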

How the data were processed

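Total RNA of dissected parts was made into libraries with the TruSeq kit per the labels. The Takara company sequenced them, and the authors mapped reads to GRCm38/mm10 with STAR. The authors deposited expected counts, of which 23.8% were not whole, and FPKM values for 26190 genes. The counting tool, its use of strand and the annotation release are not given in the sources used here. Samples were grouped by their labels, and all 12 were used, 3 per group. Same-group libraries are called biological replicates in the study.

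Rounded counts entered the quasi-likelihood test of edgeR 4.0.16 under R 4.3.3 (TMM normalization, genes kept by filterByExpr at a minimum count of 10, and p-values adjusted over all genes by Benjamini-Hochberg). Each pair of groups was fitted alone and the interaction over all 12 libraries. DESeq2 1.42.0, limma 3.58.1 and other settings served as alternatives. Scripts were tested on simulated data. Relative levels were compared by exact permutation tests (scipy 1.17.1), and plots were drawn with matplotlib 3.10.9. The pseudocount was 1 CPM.

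The text names the 5 members, genes of the processing, cGMP and factor lists, the 3 most and 3 least negative genes of the cardiomyocyte and chamber lists in each HO part, and the 5 genes most like each member. Members and lists were chosen with earlier results of these data known.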

Additional observations from a re-analysis of the deposited data

How the results depend on the processing

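*Nppa* was called lower in both HO parts under all alternatives run, with each library left out in turn included, and so was *Nppb* in ventricle-like parts. *Nppb* in atrium-like parts lost its call with scaling to cardiomyocyte genes (-1.66), and between the chambers of E11.5H with all 12 libraries in 1 fit (-1.72). For the chambers the log2 fold change in the main fit was -1.71. The fitted coefficient of variation between replicates was 0.211 for E11.5H alone and 0.551 over all 12 libraries. The cause of either loss was not tested. *Nppa* relative to cardiomyocyte genes in atrium-like parts was -7.22 with a pseudocount of 0.1 CPM and -6.99 with the whole list of 38 genes.

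Among the 38 cardiomyocyte genes alone, the place of *Nppb* was 3 with log2(FPKM + 1) and 4 with cardiomyocyte scaling in atrium-like parts. Leaving out 1 library gave places 1 to 3 in atrium-like parts and 1 to 2 in ventricle-like parts.

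Scaling to cardiomyocyte genes reversed *Nppb* (0.52) and *Npr2* (0.26) between HO parts, *Npr1* (2.95) and *Npr3* (1.003) in atrium-like parts, *Npr1* (1.02) and *Npr3* (0.55) in ventricle-like parts, and *Npr1* (1.94) and *Npr3* (0.45) in the interaction. This scaling moved the median of all genes to 1.49, 3.74, 2.41 and 1.34 in these comparisons. Relative to that shift the values were -0.97 and -1.23, -0.79 and -2.74, -1.40 and -1.87, and 0.60 and -0.89 in the same order. Taking off the shift nearly undoes the scaling, so these values are no separate check of the sign. Values of small size also changed sign. *Npr3* between HO parts was -0.036 with limma on CPM, -0.11 and -0.20 on FPKM with pseudocounts of 1 and 0.1, and -0.041 with the replicate block. *Npr2* in atrium-like parts was -0.066, -0.098, -0.22 and -0.095 under the same settings. *Npr1* in the interaction was 0.62 with limma on CPM, 0.029 on FPKM with a pseudocount of 0.1, and 0.65 with the replicate block. Leaving out 1 library gave -0.23 to 1.69 for *Npr1* and -0.70 to 0.50 for *Npr3* between HO parts, -0.77 to 0.79 for *Npr2* in atrium-like parts, and -0.75 to 1.20 for *Npr1* in the interaction.

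Counts of called genes moved more than the members did. Between the chambers of E11.5H 712 genes were called, 386 with log2(FPKM + 1), 30 with all 12 libraries in 1 fit and 1982 without the fold limit. Between HO parts 0 became 59 with DESeq2 and 1291 with cardiomyocyte scaling. In atrium-like parts 3821 became 14038 with cardiomyocyte scaling and 1662 to 5495 when 1 library was left out, lowest without an atrial library. In ventricle-like parts 2859 became 12815 with cardiomyocyte scaling, 4462 without the fold limit and 1116 to 3725 when 1 library was left out, lowest without a ventricle library. In the interaction 25 became 455 with DESeq2, 49, 89 and 45 with limma on CPM and on FPKM with pseudocounts of 1 and 0.1, 12 with cardiomyocyte scaling, 5 with the replicate block and 2 to 216 when 1 library was left out.

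The labels number replicates 1 to 3 in each group, and nothing given says that the numbers pair libraries. By the methods, HOs (n = 3) were cut into both parts, so the parts may share organoids, while the main fits were unpaired. Deviations of same-numbered HO libraries had r of -0.07, 0.62 and 0.41, and other-numbered ones -0.74 to 0.52. In E11.5H the values were 0.01 to 0.07 and -0.07 to 0.04. The replicate block joins libraries by number. Between an HO part and an embryonic chamber such numbers join unrelated material, so there the block is an arbitrary setting and no check of pairing. With the block *Npr2* in ventricle-like parts against ventricles lost its call (1.34, adjusted p = 0.056, edgeR), and no other call of a member changed. For *Npr2* in ventricle-like parts the adjusted p was 0.097 (edgeR) with all 12 libraries in 1 fit. Levels of *Nppa* and *Nppb* in HOs rest on 13 to 244 fragments, and those of *Npr1* on 4 to 159, which limits their precision.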

Other observations

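Of the genes near *Nppb* and *Nppa* in the table, 3 are given here, which were chosen by their position and after their values were seen, and none of the 3 was called lower in HOs. On the *Nppb* side, *2510039O18Rik* and *Plod1*, a lysyl hydroxylase gene, had log2 fold changes of 1.01 and 1.06 in atrium-like parts against atria, both called higher (adjusted p = 0.0076 and 0.044, edgeR). In ventricle-like parts they had 0.55 and 0.50 and were not called. On the *Nppa* side, the chloride transporter gene *Clcn6*, which starts 2184 bases beyond *Nppa*, had -0.19 and -0.14 and was not called.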
